A study of Mus musculus with 8 samples.

Results

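Places in mouse kidney cortex where a Zbtb7a peak and a Mta2 peak overlapped were compared for the position, width and relative strength of the 2 proteins. A pair was any Zbtb7a peak and Mta2 peak that shared at least 1 bp on chromosomes 1 to 19 or X. Of 124616 Zbtb7a peaks, 114590 (92.0%) overlapped a Mta2 peak, and of 149855 Mta2 peaks, 108553 (72.4%) overlapped a Zbtb7a peak. Together they formed 115468 overlapping pairs. For the comparisons of position, width and rank, 107773 mutual pairs were used, in which each peak was the other's largest overlap. They held 86.5% of all Zbtb7a peaks and 71.9% of all Mta2 peaks. The series holds 408719 peaks in all, the 134248 peaks of Mbd3 included.

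The study applied chromatin immunoprecipitation with sequencing (ChIP-seq) to kidney cortex of 2-month mice. There were 4 groups of 2 mice, namely Zbtb7a, Mta2 and Mbd3 immunoprecipitates and Input chromatin. Every group, Input included, carried the genotype Mta2flx/flx, with no Cre driver named in the labels. The cortex was crosslinked with 2 mM DSG, a protein-to-protein crosslinker, and 1% formaldehyde, and the stated depth was 100 M paired-end reads. The authors deposited 1 peak list per protein that merges both mice, so that no value per mouse, SD or test across mice could be had, and every difference here is a description of these lists. The sample titles carry the same 2 numbers in every group, which may stand for the same 2 mice. Whole cortex mixes many cell types, and a peak cannot be assigned to any of them.

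Zbtb7a is a sequence-specific transcription factor of the BTB/POZ and zinc finger family, best known in red blood cell precursors, where it silences fetal globin genes, and it can recruit corepressors. Mta2 is not known for a DNA sequence of its own: it is a scaffold of NuRD, a complex that slides nucleosomes and removes histone acetylation, in which MTA proteins hold the histone deacetylases Hdac1 and Hdac2. NuRD also contains a Chd remodelling ATPase, Gatad2a or Gatad2b, the histone-binding proteins Rbbp4 and Rbbp7, and either Mbd2 or Mbd3. A ChIP peak can stand for a protein on the DNA itself or for one crosslinked to it through a partner, which DSG favours.

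To show where the summits lay, 6 promoters are printed below from RefSeq (build GRCm38.p6, whose coordinates are those of mm10), each 250 bases before and 50 after the annotated start, written 5′ to 3′ along the gene. Capitals run from one summit to the other, both included, so a long run of capitals means summits far apart. Rac3 lies at chr11:120721218-120721517 on the plus strand, Brsk2 at chr7:141949501-141949800 on the plus strand and Slc12a3 at chr8:94328958-94329257 on the plus strand. At these 3, Zbtb7a ranked far above Mta2. Gsx1 lies at chr5:147188446-147188745 on the plus strand and Mmp15 at chr8:95352046-95352345 on the plus strand, and at both Mta2 ranked far above Zbtb7a. Map4, at chr9:109931524-109931823 on the plus strand, had both proteins among their very strongest peaks with both summits on the same base, the single capital.
Rac3: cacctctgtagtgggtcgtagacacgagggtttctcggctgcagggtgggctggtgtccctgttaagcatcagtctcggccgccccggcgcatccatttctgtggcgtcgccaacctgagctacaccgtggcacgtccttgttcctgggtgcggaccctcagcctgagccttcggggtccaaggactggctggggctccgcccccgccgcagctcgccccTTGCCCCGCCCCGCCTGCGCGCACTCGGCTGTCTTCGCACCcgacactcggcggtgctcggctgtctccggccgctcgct
Brsk2: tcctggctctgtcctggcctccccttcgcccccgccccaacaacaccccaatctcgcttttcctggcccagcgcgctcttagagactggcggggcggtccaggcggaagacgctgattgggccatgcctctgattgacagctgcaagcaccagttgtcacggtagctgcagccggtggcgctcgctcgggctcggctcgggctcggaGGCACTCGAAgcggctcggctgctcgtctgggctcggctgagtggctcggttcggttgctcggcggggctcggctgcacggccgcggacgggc
Slc12a3: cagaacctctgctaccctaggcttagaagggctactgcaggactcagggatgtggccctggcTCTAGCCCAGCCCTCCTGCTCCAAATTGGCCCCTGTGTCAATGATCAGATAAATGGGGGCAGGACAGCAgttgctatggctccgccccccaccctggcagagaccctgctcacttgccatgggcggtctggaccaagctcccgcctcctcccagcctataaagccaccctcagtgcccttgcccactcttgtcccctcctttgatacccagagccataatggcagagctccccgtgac
Gsx1: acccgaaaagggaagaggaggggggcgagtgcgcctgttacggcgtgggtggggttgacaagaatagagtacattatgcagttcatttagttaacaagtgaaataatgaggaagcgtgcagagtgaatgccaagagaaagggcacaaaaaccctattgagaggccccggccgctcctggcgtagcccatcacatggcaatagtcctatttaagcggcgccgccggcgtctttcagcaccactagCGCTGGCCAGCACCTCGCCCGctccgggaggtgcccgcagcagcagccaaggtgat
Mmp15: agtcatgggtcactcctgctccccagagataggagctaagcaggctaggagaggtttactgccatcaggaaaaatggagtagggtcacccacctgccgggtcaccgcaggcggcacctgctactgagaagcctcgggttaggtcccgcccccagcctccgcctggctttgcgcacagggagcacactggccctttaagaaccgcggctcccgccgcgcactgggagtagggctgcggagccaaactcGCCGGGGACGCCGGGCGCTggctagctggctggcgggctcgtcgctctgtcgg
Map4: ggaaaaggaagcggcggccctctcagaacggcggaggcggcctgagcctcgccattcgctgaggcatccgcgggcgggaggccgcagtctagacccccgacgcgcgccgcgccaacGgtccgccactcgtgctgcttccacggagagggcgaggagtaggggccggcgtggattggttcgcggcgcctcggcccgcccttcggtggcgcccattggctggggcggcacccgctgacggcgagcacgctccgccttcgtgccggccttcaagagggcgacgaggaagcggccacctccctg

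Capitals covered 41 bases in Rac3, 10 in Brsk2, 69 in Slc12a3, 21 in Gsx1 and 19 in Mmp15. The promoters differed in CpG content, with 30 CpGs in Rac3, 31 in Brsk2, 4 in Slc12a3, 19 in Gsx1, 22 in Mmp15 and 42 in Map4. Over the 21020 RefSeq promoters of protein-coding genes the median was 13.

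The 2 proteins peaked at nearly the same bases. The median distance between the Zbtb7a and the Mta2 summit of a mutual pair was 27 bp, with quartiles of 12 and 54 bp. Summits lay within 10 bp of each other in 22.7% of pairs, within 50 bp in 73.1% and within 100 bp in 88.8%. The longest tail held 638 pairs with summits more than 1000 bp apart, and the largest distance was 5175 bp. The Zbtb7a summit lay inside the Mta2 peak in 99.01% of pairs, and the Mta2 summit inside the Zbtb7a peak in 96.7%.

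Strong pairs had closer summits than weak ones. The median distance was 44 bp in the weakest of 10 equal parts of the pairs by mean percentile, 27 bp in the fifth and 19 bp in the strongest. It was 26 bp at gene starts or ends, 27 bp inside genes and 27 bp between genes, so position relative to genes hardly moved it.

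Mta2 peaks were wider. The median width was 430 bp for Zbtb7a peaks (quartiles 274 and 717 bp) and 566 bp for Mta2 peaks (quartiles 382 and 906 bp) of the same pairs. The median of the difference, Zbtb7a minus Mta2, was -105 bp (quartiles -218 and -26 bp). The Zbtb7a peak was the wider of the pair in 18.1% of cases and the Mta2 peak in 81.6%. In 61.1% of pairs the Zbtb7a peak lay wholly inside the Mta2 peak, and the reverse held in 7.05%. Width grew with strength for both proteins, and Mta2 stayed wider in each of the 10 parts: the medians were 216 bp for Zbtb7a and 294 bp for Mta2 in the weakest part, and 1129 bp for Zbtb7a and 1339 bp for Mta2 in the strongest. Among the 34895 pairs in which the 2 ranks differed by under 5 percentile points, the medians were 548 bp for Zbtb7a and 677 bp for Mta2. Width depends on how far a signal stays above the peak caller's threshold, and the part of antibody and of read depth in this difference was not tested.

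**Figure D1:**
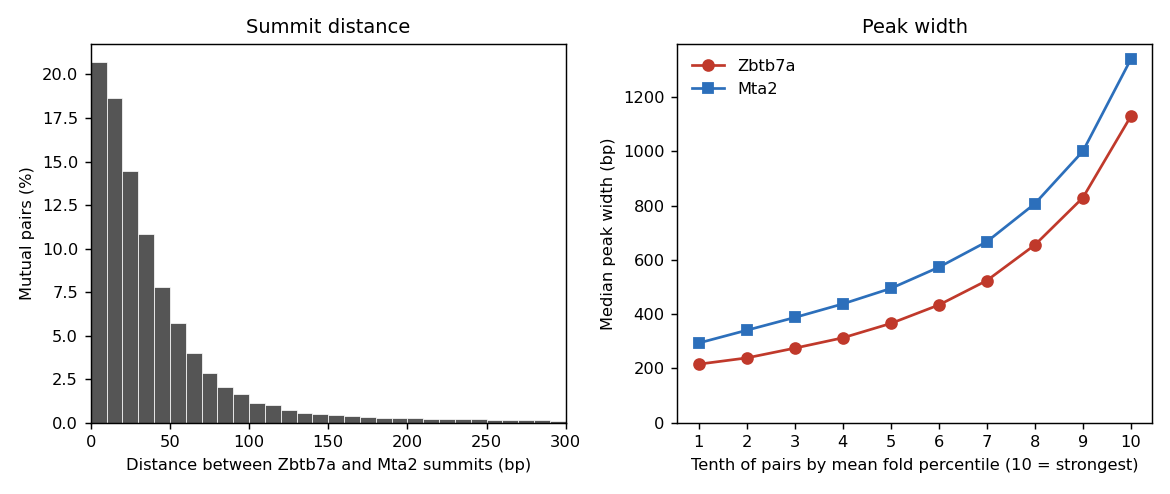
Left, the distance between the Zbtb7a and Mta2 summits of mutual pairs (bp, in bins of 10 bp, up to 300 bp) against the percent of pairs. Right, the median peak width (bp) of Zbtb7a (circles) and Mta2 (squares) in 10 equal parts of the pairs, weakest to strongest by mean fold percentile. Short distances dominate, with a median of 27 bp, and the Mta2 line lies above the Zbtb7a line in every part.

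Strength was compared by rank, because folds of separate antibodies have no common scale. Each peak's fold enrichment at its summit, as the authors' peak caller gave it, was turned into a percentile among the mutual pairs, from 0 for the weakest to 100 for the strongest. The rank difference is the Zbtb7a percentile minus the Mta2 percentile, and 25 points or more was taken as a difference. The median fold was 5.56 for Zbtb7a and 7.26 for Mta2, and the 99th percentile was 45.8 for Zbtb7a and 40.7 for Mta2.

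Most pairs held similar ranks for both proteins. The rank difference was within 10 points in 54.6% of pairs, and its median size was 8.82 points. Zbtb7a ranked at least 25 points above Mta2 in 5703 pairs (5.29% of all pairs), and Mta2 at least 25 points above Zbtb7a in 7119 pairs (6.61%). The closest values to the limit were 25.0016 inside and 24.9993 outside on the Zbtb7a side, and 25.003 inside and 24.9998 outside on the Mta2 side, both as sizes. Differences of 50 points or more favoured Zbtb7a in 159 pairs and Mta2 in 565. Differences of 25 points or more were also counted by strength. The parts are cut by the mean of the same 2 percentiles, so the weakest and strongest pairs can hardly differ by 25 points. Counts by part therefore cannot show how such differences depend on strength. Of the 10 parts by mean percentile, the fourth held 1273 with Zbtb7a higher and 1552 with Mta2 higher. The ninth held 28 and 49, the strongest 0 of either and the weakest 3 and 2. Ranked by −log10 q in place of fold, the counts were 5188 for Zbtb7a and 6565 for Mta2. Ranked within each whole list, where Mta2 has many more weak peaks that lack a Zbtb7a partner, the counts were 2286 for Zbtb7a and 13336 for Mta2, and the median of all differences was -4.28 points against 0.43 among the pairs. The balance between the 2 directions therefore depends on the list that is ranked.

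The strongest pairs were strong for both proteins. In the top 10% of pairs by Zbtb7a fold, the median Mta2 percentile was 94.1 and the lowest was 23.0. In the top 10% by Mta2 fold, the median Zbtb7a percentile was 94.0 and the lowest was 1.85. That lowest value came from a wide Mta2 peak with its summits away from gene starts, 1524 bp from Eif2b5, a subunit gene of the translation factor eIF2B: its largest overlap was a Zbtb7a peak of fold 2.34, while another Zbtb7a peak under it had a fold of 21.6.

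**Figure D2:**
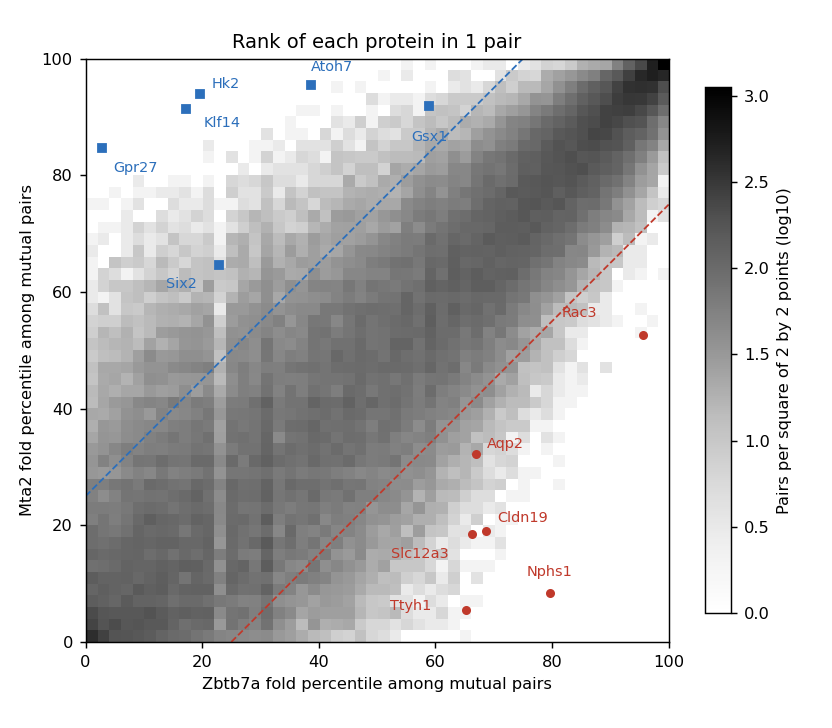
Each mutual pair by its Zbtb7a fold percentile (horizontal) and its Mta2 fold percentile (vertical), as the number of pairs per square on a log10 grey scale. Dashed lines mark 25 points, circles mark genes with Zbtb7a ranked higher and squares genes with Mta2 ranked higher. The dark band follows the diagonal and narrows at the upper right. Pale or dark vertical stripes arise where many peaks share 1 fold and so 1 percentile, the largest tie in the Zbtb7a list being 1455 pairs at fold 3.11.

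The direction of the rank difference went with peak shape. Where Zbtb7a ranked at least 25 points higher, the median widths were 404 bp for Zbtb7a and 379 bp for Mta2, and the Zbtb7a peak was the wider in 59.7%. Where Mta2 ranked at least 25 points higher, they were 285 bp for Zbtb7a and 580 bp for Mta2, and the Zbtb7a peak was the wider in 0.885%. Width and rank come from the same signal and are not independent measures. Summits were a median of 30 bp apart in the Zbtb7a-higher pairs and 38 bp in the Mta2-higher pairs, against 26 bp in the rest. The rest include all pairs of the strongest of the 10 parts, whose median distance was 19 bp. Strength and rank difference were not separated in these distances.

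Rank differences were also counted by location. Pairs with both summits within 1 kb of a gene start (or of either end, for genes without a strand in the tables used) made up 14210 of all pairs (13.2%). Zbtb7a ranked at least 25 points higher in 3.95% of them and Mta2 in 2.89%. Inside genes the shares were 5.81% for Zbtb7a and 6.59% for Mta2, and between genes 5.07% for Zbtb7a and 7.97% for Mta2. Pairs at gene starts or ends were also stronger, with median folds of 13.6 for Zbtb7a and 14.6 for Mta2. Pairs that are strongest by the mean of both percentiles cannot differ by 25 points by construction. On chromosome X the share was 7.92% for Zbtb7a and 3.91% for Mta2.

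Mbd3, a readout that the pairing did not use, overlapped 94.3% of the mutual pairs. It overlapped 90.01% of the pairs in which Zbtb7a ranked higher, 98.5% of those in which Mta2 ranked higher and 94.2% of the rest. Among Zbtb7a-higher pairs with Mbd3, the median percentiles were 51.1 for Zbtb7a, 16.5 for Mta2 and 27.3 for Mbd3. Among Mta2-higher pairs they were 16.7 for Zbtb7a, 54.3 for Mta2 and 39.2 for Mbd3. In both classes the Mbd3 median lay between the other 2, nearer to that of Mta2 in each.

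Genes were assigned a pair when both summits lay within 1 kb of the gene's start, and each gene took its pair of highest mean percentile. For 4357 of 21631 protein-coding genes no strand was at hand, and either end was used. The tables used give no exons, so exon, intron and UTR positions are not stated. A pair was found for 13885 genes (64.2%), on 12804 distinct pairs, since neighbouring genes can share a pair. Zbtb7a ranked at least 25 points higher at 459 genes (3.31% of genes with a pair) and Mta2 at 355 (2.56%). By −log10 q the counts were 318 for Zbtb7a and 299 for Mta2, and by rank in the whole lists 141 for Zbtb7a and 546 for Mta2.

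At the 11149 genes placed by a stranded start, both summits lay just upstream of it. The median Zbtb7a summit was 29 bp upstream (quartiles -106 and 39 bp, negative being upstream), and the median Mta2 summit was 38 bp upstream (quartiles -106 and 20 bp). The Zbtb7a summit was downstream of the Mta2 summit at 53.2% of genes and upstream at 45.4%. Zbtb7a lay within 100 bp of the start at 57.5% of genes and Mta2 at 59.6%. Where Mta2 ranked at least 25 points higher, the shares were lower, 36.5% for Zbtb7a and 33.7% for Mta2, and summits were a median of 61 bp apart. Where Zbtb7a ranked at least 25 points higher, they were 53.8% for Zbtb7a and 56.9% for Mta2, and the median distance was 36 bp.

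**Figure D3:**
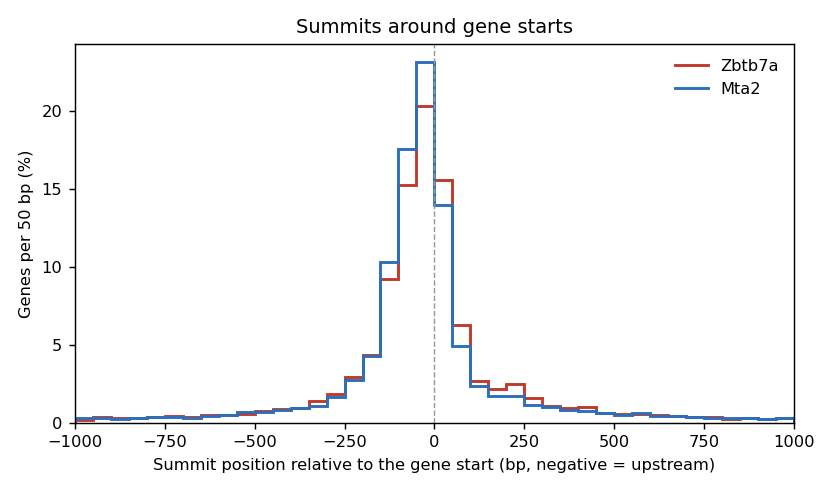
Position of the Zbtb7a and Mta2 summits relative to the gene start (bp, negative is upstream) at 11149 genes, as percent of genes per 50 bp. Both lines peak in the 50 bp before the start, and the Mta2 line is the higher there and the Zbtb7a line the higher in the first bins after the start.

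Among genes where one protein was in its top 10% and the other ranked far lower, the 14 largest differences in favour of Zbtb7a spanned 31.5 to 43.0 points. The largest was at Rac3, a small GTPase gene of the Rac family. Its Zbtb7a peak had a fold of 29.2 (percentile 95.6) and its Mta2 peak a fold of 7.68 (percentile 52.7), with near-equal widths of 2784 bp for Zbtb7a and 2792 bp for Mta2 and summits 10 bp downstream of the start for Zbtb7a and 30 bp upstream for Mta2. Brsk2, a kinase gene of the AMPK-related family, had the highest Zbtb7a fold of the 14, at 69.2 (percentile 99.8), against 9.79 for Mta2 (percentile 63.2), with summits 9 bp apart. At both genes the ranks differed far more than the positions, with both summits inside the printed promoters.

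Neighbouring genes shared 2 of these pairs. One pair served the divergent starts of Acd, a telomere shelterin gene, and Pard6a, a cell polarity gene, with a fold of 20.9 for Zbtb7a and 7.19 for Mta2. Another served Cip2a, whose product inhibits the phosphatase PP2A, and Dzip3, a ubiquitin ligase gene, with a fold of 22.3 for Zbtb7a and 7.78 for Mta2. Akt1s1, which encodes an inhibitor of mTORC1, had percentiles of 91.9 for Zbtb7a and 50.8 for Mta2, and its summits were 310 bp apart. The remaining genes were Krba1, the actin-binding drebrin gene Dbn1, the immunophilin gene Fkbp8, the polarity adaptor gene Lin7c, the calponin gene Cnn2, the mitochondrial citrate carrier gene Slc25a1 and the profilin gene Pfn3. At Cip2a, Dzip3, Fkbp8, Lin7c, Slc25a1 and Pfn3 the difference fell below 25 points by −log10 q (20.97 to 24.5), and at Lin7c, Cnn2, Slc25a1 and Pfn3 by rank in the whole lists (21.9 to 24.4).

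The 14 largest differences in favour of Mta2 spanned -29.5 to -74.5 points. Klf14, a Krüppel-like factor gene without a strand in the tables, had a fold of 3.22 for Zbtb7a (percentile 17.2) and 22.7 for Mta2 (percentile 91.4). Atoh7, a basic helix-loop-helix factor gene of the retina, had a fold of 4.45 for Zbtb7a (percentile 38.6) and 28.1 for Mta2 (percentile 95.5). Gsx1, a homeobox gene, had a fold of 6.80 for Zbtb7a and 23.2 for Mta2. At all 3 the Mta2 peak was about 2 to 4 times as wide: 541 bp for Zbtb7a and 2101 bp for Mta2 at Klf14, 505 bp for Zbtb7a and 1080 bp for Mta2 at Atoh7, and 483 bp for Zbtb7a and 946 bp for Mta2 at Gsx1.

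The largest value of this group was at Hk2, which encodes a hexokinase, and it rested on the choice of partner. Its mutual pair joined a Zbtb7a peak of fold 3.34 and a Mta2 peak of fold 25.8 whose summits were 1028 bp apart, and another Zbtb7a peak under the same Mta2 peak had a fold of 10.8. With the nearest summit as partner the difference was -19.3 points in place of -74.5. Mmp15, a membrane-bound matrix protease gene, had a fold of 7.77 for Zbtb7a and 33.3 for Mta2 with summits 18 bp apart. Receptor and channel genes in the group were the galanin receptor gene Galr3, the semaphorin receptor gene Plxnc1, the orphan receptor gene Gpr135 and the potassium channel subunit gene Kcns2. The others were Kbtbd13, Stox1, the secreted matrix protein gene Reln, the ribosome rescue gene Pelo and the guanine nucleotide exchange factor gene Vav3. At Gpr135, Pelo and Vav3 the difference was under 25 points by −log10 q, the lowest being -15.8 at Pelo.

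Both proteins were in their top 1% at 168 genes. The 5 with the smallest differences were Errfi1, an inhibitor of the EGF receptor, the clathrin adaptor gene Picalm, Ccdc107, the microtubule-associated protein gene Map4, and Cdkn2aip. Map4 had a fold of 77.3 for Zbtb7a and 60.1 for Mta2, and Ccdc107 109 for Zbtb7a and 69.3 for Mta2. Summits were on the same base at Map4 and Cdkn2aip and at most 40 bp apart at the other 3.

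**Figure D4:**
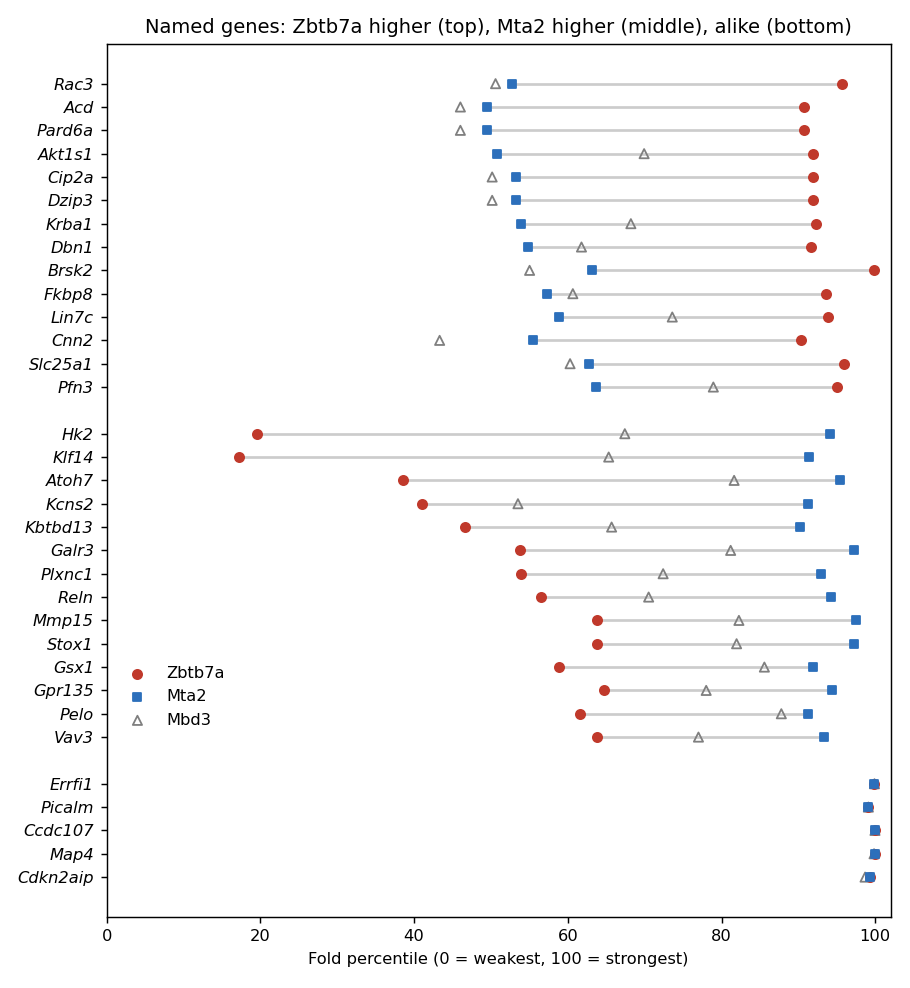
Fold percentiles of Zbtb7a (circles), Mta2 (squares) and Mbd3 (open triangles, ranked among the pairs that hold Mbd3) at the genes with the largest rank differences in each direction and at 5 genes with both proteins in the top 1%. Grey lines join Zbtb7a and Mta2. In the top group, with Zbtb7a higher, the Mbd3 triangle lies below both other points at several genes, Rac3 and Brsk2 among them. At others of that group, such as Akt1s1 and Krba1, it lies between them. In the middle group every Mbd3 triangle lies between the other 2 points, and in the bottom group the points coincide near 100.

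With no limit on strength, the gene with the largest difference in favour of Zbtb7a was Nphs1, which encodes nephrin, the slit diaphragm protein of podocytes (this and the next genes were chosen after their values were seen). Its Zbtb7a peak had a fold of 12.8 (percentile 79.7) and its Mta2 peak a fold of 3.13 (percentile 8.35), a difference of 71.3 points. The summits were 10 bp apart, 456 bp upstream of the start for Zbtb7a and 446 bp for Mta2, the widths were 409 bp for Zbtb7a and 280 bp for Mta2, and no Mbd3 peak overlapped the pair. No other mutual pair and no Mbd3 peak had a summit within 5 kb of this start. Ttyh1, Sptbn4, Npw, Olfm2 and Kcnt1 followed with 50.4 to 59.7 points and summits 14 to 112 bp apart. Zfp575 and Tgm2 also stood in this order with 69.8 and 57.0 points, but under their Zbtb7a peaks lay a stronger Mta2 peak, and with the nearest summit as partner the differences were 3.07 and 8.62 points.

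In favour of Mta2 the largest difference was -81.9 points at the pair shared by Eif4e3, a cap-binding protein gene, and Gpr27, a receptor gene, with a fold of 2.45 for Zbtb7a and 17.7 for Mta2. Ina, a neuronal intermediate filament gene, had a fold of 2.73 for Zbtb7a and 20.3 for Mta2. Ppm1n, Insyn2a and the homeobox gene Msx3 had differences of -74.1, -71.7 and -68.3 points. These Mta2 peaks were 1221 to 2363 bp wide and the Zbtb7a peaks 287 to 389 bp, so that a narrow Zbtb7a peak sat within a broad Mta2 peak. The Zbtb7a peaks were weak, with folds from 2.29 at Ppm1n to 3.32 at Msx3, and width depends on how far a signal stays above the threshold. At Insyn2a another Zbtb7a peak under the same Mta2 peak had a fold of 3.78.

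Away from gene starts and ends, the clearest pairs were those with summits within 100 bp, a condition added after the data were seen, because all 5 of the largest Mta2-higher pairs without it held a stronger Zbtb7a peak under the same Mta2 peak. Inside Gnao1, a G protein subunit gene, the fold was 94.7 for Zbtb7a (percentile 99.95) and 4.85 for Mta2 (percentile 29.5), at chr8:93813152-93813930 for the Zbtb7a peak. Inside Arhgef16, a guanine nucleotide exchange factor gene, it was 25.5 for Zbtb7a and 4.28 for Mta2, at chr4:154279569-154280188. In the other direction, a pair inside Cacng4, a calcium channel subunit gene, had a fold of 4.34 for Zbtb7a (percentile 36.8) and 79.5 for Mta2 (percentile 99.99) with summits 4 bp apart, at chr11:107784005-107785580 for the Mta2 peak. A pair between genes, 34824 bp from Cyp1b1, a cytochrome P450 gene, had a fold of 4.34 for Zbtb7a and 22.6 for Mta2 with summits 1 bp apart.

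The genes of the NuRD complex itself were examined one by one. All 15 had a pair and 0 passed 25 points in either direction, a count that cannot be set apart from the shares over all genes (3.31% for Zbtb7a and 2.56% for Mta2), and the differences ran from -1.99 at Chd5 to 19.8 at Mta3 with a median of 3.32 points, against 1.72 over all genes with a pair. The pair at the Mta2 gene, the locus with the loxP-flanked alleles in every group, had one of the highest Zbtb7a folds of all, 145 (rank 12 of 107773), and a fold of 21.3 for Mta2 (percentile 89.9), with summits 80 bp apart. Among the deacetylase genes, Hdac2 had percentiles of 86.4 for Zbtb7a and 66.7 for Mta2, and Hdac1 had 99.3 for Zbtb7a and 97.2 for Mta2. The Mbd3 gene had 90.7 for Zbtb7a and 77.7 for Mta2. By rank in the whole lists, Chd3, Chd4, Chd5, Mbd2 and Rbbp4 had negative differences. With peaks limited to a fold of at least 5, Hdac2 (35.5 points) and Mta3 (36.2 points) passed the limit. Ranks were then taken among fewer pairs, where the same folds can span more points. Zbtb7a and Zbtb7b had no mutual pair at a start or end. Of 18 genes of BTB zinc finger factors with a pair, 1 passed, Zbtb4, with 29.5 points (22.5 by −log10 q and 17.9 by rank in the whole lists, both under the limit).

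Genes of the distal nephron segments included several with Zbtb7a ranked higher. Of 19 genes of the loop of Henle and distal tubule with a pair, 4 had Zbtb7a at least 25 points higher (3.31% over all genes with a pair) and 0 had Mta2 (2.56%), with a median of 4.23 points (-3.73 by rank in the whole lists). By −log10 q and by rank in the whole lists, 3 had Zbtb7a higher. At Slc12a3, the thiazide-sensitive sodium chloride cotransporter gene, the fold was 8.32 for Zbtb7a (percentile 66.3) and 3.92 for Mta2 (percentile 18.4), at the bases printed in capitals above. At Cldn19, a tight junction claudin gene, it was 8.90 for Zbtb7a (percentile 68.7) and 3.96 for Mta2 (percentile 19.1). Klhl3, an adaptor for the ubiquitin ligase that degrades WNK kinases, had a difference of 37.3 points. Within 5 kb of the start, Cldn19 had 3 other pairs with differences of -3.09 to 8.96 points, one of them at -1034 bp from the start with a fold of 28.9 for Zbtb7a and 18.8 for Mta2. Slc12a3 also had 3 other pairs, all with Zbtb7a ranked above Mta2: 4.23 points at -2939 bp, 17.96 points at 2163 bp and 7.16 points at 4338 bp.

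In the other segments differences went both ways, in small counts beside shares of 3.31% for Zbtb7a and 2.56% for Mta2 over all genes. Of 14 collecting duct genes with a pair, 2 had Zbtb7a higher and 1 had Mta2 higher, the anion exchanger gene Slc26a4. The 2 were the water channel gene Aqp2 (fold 8.45 for Zbtb7a and 5.11 for Mta2) and the proton pump subunit gene Atp6v0d2 (fold 4.34 for Zbtb7a and 3.23 for Mta2). By rank in the whole lists the values at Aqp2 and Atp6v0d2 were 21.7 and 20.96 points, under the limit. Of 29 proximal tubule genes, 2 had Zbtb7a higher, the amino acid transporter gene Slc6a18 (39.4 points) and the organic anion transporter gene Slc22a8 (28.3 points, and 17.6 by rank in the whole lists), and 1 had Mta2 higher, the sulfate transporter gene Slc13a1 (-34.2 points). Of 25 podocyte genes, 2 had Zbtb7a higher, Nphs1 among them, and 1 had Mta2 higher, the Rac GTPase-activating protein gene Arhgap24 (-33.6 points). Of 26 genes of kidney transcription factors, Irx1 had 35.02 points (22.6 by rank in the whole lists) and Six2, a nephron progenitor factor, -41.9 points, with its summits 1184 bp apart. Of 13 genes of mesangium and stroma, Itga8 had Zbtb7a higher and Pdgfra, Gata6 and Dcn had Mta2 higher. At Dcn both peaks were weak, with a fold of 2.22 for Zbtb7a and 4.69 for Mta2. Itga8 fell under the limit by −log10 q (23.1 points) and by rank in the whole lists (16.9 points). With the nearest summit as partner, the value at Gata6 was -1.54 points. As a check of the labelled tissue, pairs were found at 29 of 31 proximal tubule genes, against 5 of 17 genes of immune cells and 5 of 18 of hepatocytes, where 64.2% of all genes had a pair, although a peak does not measure expression.

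Medians below 0, on the Mta2 side, were found for the genes of splicing factors, proteasome, endothelium (-2.88 points), cytosolic ribosomal proteins, oxidative phosphorylation and Krüppel-like and Sp factors (-0.12 points). Of 30 proteasome subunit genes, 0 had Zbtb7a higher and 3 had Mta2 higher, where 3.31% and 2.56% of all genes with a pair did, with a median of -4.42 points. At Psmd4, a ubiquitin receptor of the proteasome, the fold was 4.51 for Zbtb7a (percentile 39.0) and 12.02 for Mta2 (percentile 71.5). Psmc1 and Psmc3, both ATPase subunit genes, had -26.6 and -26.3 points, and both were -20.3 by −log10 q. Splicing factor genes had a median of -4.85 points over 29 genes. By rank in the whole lists the medians were -5.49 points for the proteasome, -4.93 for splicing, -4.89 for cytosolic ribosomal proteins, -5.81 for endothelium and -6.51 for mesangium and stroma, and -0.72 over all genes with a pair. The single call among the splicing factor genes was Sf3a2, with 33.6 points by rank among the pairs. It had 18.3 points by −log10 q and 22.8 by rank in the whole lists, both under the limit. With the nearest summit as partner it turned to -52.9 points.

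In lists of this size, the shares over all genes (3.31% for Zbtb7a and 2.56% for Mta2) give few calls, so that none is no result about a list. No gene passed the limit in either direction among 24 of fatty acid oxidation, 29 of oxidative phosphorylation, 10 of gluconeogenesis and ammoniagenesis and 30 of cytosolic ribosomal proteins, with medians of 2.16, -0.36, 3.76 and -0.95 points. The same held for 15 circadian clock genes, 11 of Krüppel-like and Sp factors, 15 of endothelium and 5 of hepatocytes. Of 19 glycolysis genes, Hk2 alone passed. Of 24 E2F and cell cycle genes, Ccnd1 had Zbtb7a higher (30.2 points, but 18.6 by rank in the whole lists) and Mcm5 had Mta2 higher (-28.5 points, but -24.6 by −log10 q). Single genes with Mta2 higher were Tgfb2 (-32.5 points) among 21 of TGF-beta signalling and Cdkn2a (-30.1 points) among 18 of p53 and CDK inhibitors. Among 30 genes of mediator, SAGA and general transcription factors, Ercc3 had -34.7 points. Among 5 of immune cells, Fcer1g had 27.4 points, from weak peaks with a fold of 3.78 for Zbtb7a and 2.37 for Mta2.

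**Figure D5:**
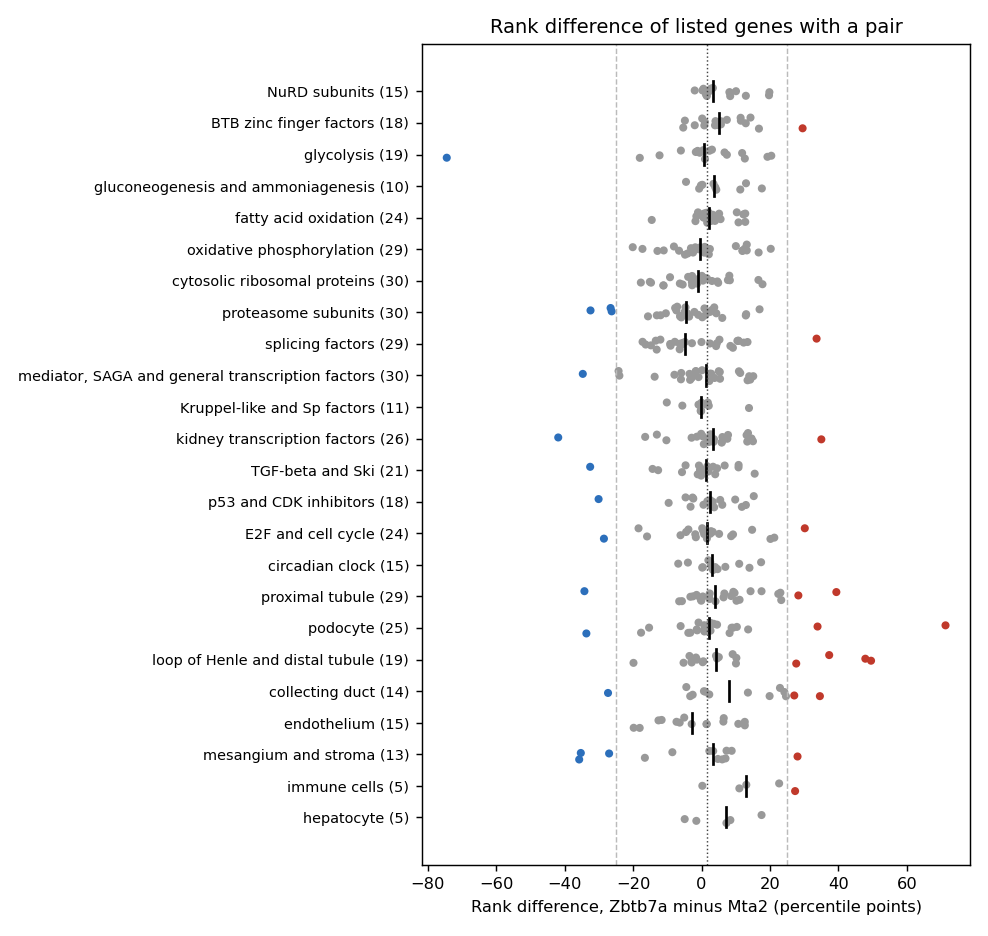
Rank difference, Zbtb7a minus Mta2 (percentile points), of each listed gene with a pair, by list, with the number of such genes in brackets. Short vertical bars are list medians, the dotted line is the median over all genes (1.72 points), dashed lines mark 25 points, and coloured points lie beyond them, to the right for Zbtb7a and to the left for Mta2. The 4 coloured points of the loop of Henle and distal tubule lie to the right, with none to the left, and 3 proteasome points lie to the left and none to the right.

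Promoter sequence was searched on both strands for short words. CGACC is the core of the known Zbtb7a site, and CGACCAC is a longer form of it. GGGCGG is the GC box that Sp factors bind, and GGAAGTG belongs to ETS factors. AAAGTCC is part of the HNF4 site, GTTAAT part of the HNF1 site and TGACGTC part of the CREB site. CGACC lies within CGACCAC, so those counts overlap. Each distinct promoter was read once, 363 with Zbtb7a higher, 249 with Mta2 higher and 10520 with neither. CGACC occurred in 31.7% of the Zbtb7a-higher promoters, 26.5% of the Mta2-higher promoters, 34.1% of the rest and 24.7% of all 21020 promoters. CGACCAC occurred in 2.20% of the Zbtb7a-higher promoters, 0.402% of the Mta2-higher promoters, 1.99% of the rest and 1.48% of all. These are 8 and 1 promoters in the first 2 sets, too few to set apart. GGGCGG occurred in 57.6% of the Zbtb7a-higher promoters, 41.8% of the Mta2-higher promoters, 66.8% of the rest and 46.6% of all. GGAAGTG occurred in 11.8% of the Zbtb7a-higher promoters, 9.64% of the Mta2-higher promoters, 14.1% of the rest and 12.1% of all. The shares of the other 3 words were between 3.21% and 6.34% in every set. Median CpG counts were 14 for Zbtb7a-higher, 15 for Mta2-higher, 21 for the rest and 13 for all, so the genes with neither protein higher had the most CpG-rich promoters. No pair of the strongest of the 10 parts by mean percentile was in the first 2 sets. Pair strength and rank difference are therefore mixed in these shares and counts. Of 6646 pairs with both summits in the promoter window, 2310 had CGACC in that promoter. The median distance to the nearest one was 58 bp from the Zbtb7a summit and 64 bp from the Mta2 summit. The Zbtb7a summit was the nearer in 50.04% of these 2310 pairs and the Mta2 summit in 48.01%.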

How the data were processed

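ChIP-seq peak lists of Zbtb7a, Mta2 and Mbd3 from kidney cortex were analysed, each merging 2 mice. The submitters' processing notes name the build mm10 and the tools MACS2, Bowtie2, bedtools and deepTools, with versions not given in the sources used here. How mice were merged and how Input entered the calls is not stated. The deposited lists have no header, and their layout is narrowPeak. They hold positions, a summit offset, the fold (a ratio of signal over background computed by the authors' peak caller) and the deposited −log10 q (at least 1.30). Read depth was not analysed here beyond the stated figure. Where no peak is listed, the signal fell short of the authors' peak threshold.

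With Python 3.11.15, numpy 2.4.6 and pandas 2.3.3, peaks on chromosomes 1 to 19 and X that shared at least 1 bp were joined. Mutual pairs were kept, with ties broken by the nearer summit. Folds were ranked within the pairs, tied values sharing a mean rank, and a difference of 25 points was counted. The Mbd3 percentile was taken among the 101618 pairs that overlap a Mbd3 peak. The steps were tested on simulated lists in which each peak had 1 possible partner, so the choice among several partners was not tested. In the real lists that choice changed some values, as at Hk2 (-74.5 points, but -19.3 with the nearest summit as partner). No test across samples exists with 1 value per protein and peak.

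Gene positions and promoters came from RefSeq, GRCm38.p6. Genes named were the 14 with the largest difference in each direction where the higher protein was in its top 10% and −log10 q gave the same direction, the 5 most alike in the top 1%, the 2 largest per list and direction beyond 25 points, all NuRD genes, and 5 pairs per direction away from gene ends. All 549 symbols of the 24 gene lists were in the annotation. The members and lists were chosen with earlier results of these data known. Alternatives were other overlaps, thresholds, windows, rankings and partners. The choices of the nearest summit, of pairs without another partner and of summits within 100 bp were added after seeing the data. Genes whose names have the form Gm with a number or end in Rik were not named. Of the genes counted in the lists, 2 with Zbtb7a higher are not reported here by name.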

Additional observations from a re-analysis of the deposited data

How the results depend on the processing

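By rank in the whole lists the median rank difference changed sign, over all pairs (-4.28 in place of 0.43 points) and over all genes with a pair (-0.72 in place of 1.72 points), and the balance of genes turned, to 141 with Zbtb7a higher and 546 with Mta2 higher, in place of 459 and 355. The median width difference stayed negative under every alternative run. Summit distance is a size and the number of pairs a count, so neither has a direction that could change. With a fold of at least 5 in both lists there were 56611 mutual pairs in place of 107773. The median summit distance was 25 bp with 50% of both peaks shared, 23 bp with −log10 q of at least 10, 22 bp with a fold of at least 5 and 29 bp over every overlapping pair. The median width difference, Zbtb7a minus Mta2, was -86, -108 and -114 bp with 50% shared, a fold of at least 5 and every overlapping pair, -102 bp among pairs of like rank, -101 bp with summits within 100 bp and -97 bp among pairs without another partner. Pairs with Zbtb7a higher numbered 2286 by rank in the whole lists and 3711 with 50% shared. Pairs with Mta2 higher numbered 13336 by rank in the whole lists and 4412 with 50% shared. The rank difference of Sf3a2 reversed to -52.9 with the nearest summit as partner, which takes another Zbtb7a peak. The cause of the other changes was not tested. Of the named genes, 16 fell below 25 points by −log10 q, 13 by rank in the whole lists and 4 with the nearest summit as partner. With a fold of at least 5, more genes had Zbtb7a higher (1210) and more had Mta2 higher (513), and the limit was passed by Hdac2 and Mta3. Ranks were then taken among 56611 pairs, so the same folds can span more points than in the main ranking. The limit of 25 points is therefore not the same limit there, and these counts cannot be compared with the main ones. No paired analysis was possible because each list merges both mice and carries no value per mouse, and for the same reason leaving out a replicate could not be run. Depth per library is unknown here, so how far it limits weak peaks cannot be stated.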

Other observations

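Some broad peaks of one protein covered several peaks of the other. A Mta2 peak lay over 2 or more Zbtb7a peaks in 6194 cases (5.71% of paired Mta2 peaks), and a Zbtb7a peak over 2 or more Mta2 peaks in 852 cases (0.744% of paired Zbtb7a peaks). Mta2 peaks over several Zbtb7a peaks had a median width of 1631 bp, against 540 bp for those over 1. The most divided was a Mta2 peak of 5705 bp and fold 24.6 touching Hgd, which encodes an enzyme of tyrosine breakdown. It covered 7 Zbtb7a peaks with folds of 2.06 to 16.0, at chr16:37579669-37585373. At the Hoxb cluster of homeobox genes both forms met. A Mta2 peak of 8078 bp touching Hoxb9 and Hoxb8 lay over 6 Zbtb7a peaks, and a Zbtb7a peak of 6315 bp and fold 39.8 touching Hoxb8 and Hoxb7 lay over 3 Mta2 peaks with folds of 3.87 to 9.80. A Zbtb7a peak of 8977 bp and fold 66.2 touching Fxyd2, a regulatory subunit gene of the sodium pump, lay over 3 Mta2 peaks with folds of 3.61 to 27.9.

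Peaks without a partner were weak. The 10026 unpaired Zbtb7a peaks had a median fold of 2.81, against 5.56 in mutual pairs, and the 41302 unpaired Mta2 peaks had a median fold of 3.15, against 7.26 in mutual pairs. In 25 cases an unpaired Zbtb7a peak had a Mta2 peak within 10 bp.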
